A study of Mus musculus with 6 samples.

Results

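The nuclear genes for the subunits of the 5 oxidative phosphorylation complexes were described across activated mouse CD8+ T cells that had been given vehicle or blebbistatin. The cells came from spleen. Members were chosen by symbol alone. They were genes named Ndufa, Ndufb, Ndufc, Ndufs or Ndufv with a number, and Sdha to Sdhd. Genes with a symbol starting in Uqcr, Cox4 to Cox8 with a letter, or Atp5 were members too, and 4 matching names with -ps were left out. This gave 84 of the 47729 genes in each library's table. Of these, 73 were common subunits, with 35 in complex I, 4 in complex II, 8 in complex III, 11 in complex IV and 15 in complex V. Ndufa4 was counted in complex IV, where its protein sits. The other 11 were 8 isoforms known from restricted tissues (Cox4i2, Cox6a2, Cox6b2, Cox7a1, Cox7b2, Cox8b, Cox8c and Ndufa4l2) and 3 genes that match by name and are not subunits (Cox7a2l, Atp5s and Atp5sl).

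Oxidative phosphorylation takes place in the inner membrane of mitochondria. Complexes I and II pass electrons from NADH and succinate to coenzyme Q, complex III passes them to cytochrome c, complex IV passes them to oxygen, and complex V, the ATP synthase, makes ATP from the proton gradient that complexes I, III and IV build. Most subunits are encoded in the nucleus and are assembled with a small set encoded in mitochondrial DNA. T cells draw on this pathway throughout their life and raise mitochondrial mass when they are activated.

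The vehicle group had 3 libraries of cells kept for 24 h with vehicle, and the blebbistatin group had 3 libraries of cells kept for 24 h with 2 µM blebbistatin, a small molecule that holds myosin II, the actin motor of cell contraction, in a state of weak actin binding. All cells were activated CD8+ T cells, and the labels name neither the vehicle, the mouse strain nor how the cells were activated. Nothing in the labels says that replicates came from separate animals or cultures, so p-values measure only the spread between these libraries, which may be technical. Levels are in TPM, a unit that scales reads by transcript length and library size.

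The libraries held an implied 18500000 to 19900000 fragments, and the 13372 genes whose mean over libraries reached 1 TPM were tested. The 8 T cell markers summed to between 4543 and 4597 TPM with vehicle and between 4309 and 4477 TPM with blebbistatin, where Thy1 was called lower. The 3 CD4 T cell markers (Cd4, Cd40lg and Foxp3) summed to between 2.05 and 2.19 TPM with vehicle and between 1.45 and 2.55 TPM with blebbistatin. Of these, only Foxp3 reached the minimum level, and it was not called. Cd4 was at or under 0.244 TPM in each library. On the first principal component of all tested genes, which held 42.8% of the variance, vehicle libraries lay between -16.4 and -13.4, blebbistatin 1 at 30.5, blebbistatin 3 at 14.5 and blebbistatin 2 at 0.23. By limma with Benjamini-Hochberg adjustment, 187 genes were higher and 57 lower with blebbistatin, or 130 and 67 under median-ratio scaling. Without blebbistatin 2 these counts were 496 and 594, and without blebbistatin 1 they were 89 and 31.

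Of the 84 members, 78 reached the minimum level and were tested, and 1 passed, where 1.82% of all tested genes passed. That member was Cox6b2, the isoform of complex IV subunit 6B known from testis. It was higher with blebbistatin, where 1.4% of all tested genes were called higher, and 0 members were called lower, where 0.426% of all tested genes were. At an unadjusted p under 0.05 there were 16 members, where 22.9% of all tested genes fell under that threshold.

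Cox6b2 stood at 46.3, 41.0 and 41.5 TPM in the vehicle libraries and at 75.9, 68.9 and 73.9 TPM in the blebbistatin libraries. All 3 blebbistatin libraries lay above all 3 vehicle libraries, and the nearest libraries of the groups were 22.6 TPM apart. The mean rose from 42.9 ± 2.91 to 72.9 ± 3.61 TPM (SD, n = 3), a fold of 1.70 between means. On the log2(TPM + 1) scale the change was 0.75 with a standard error of 0.07 (limma, Benjamini-Hochberg adjusted p = 0.0149). The level rested on 172 to 322 implied fragments per library. In bulk RNA, more cells with the transcript and more transcript per cell cannot be told apart.

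Cox6b1, the common isoform of the same subunit, stood at 352, 358 and 347 TPM with vehicle and at 394, 331 and 388 TPM with blebbistatin. Its groups overlapped, and the mean went from 352 ± 5.65 to 371 ± 34.6 TPM, a log2 change of 0.07 (limma, Benjamini-Hochberg adjusted p = 0.59). Cox6b2 therefore made up 10.9% ± 0.682 of the summed Cox6b1 and Cox6b2 TPM with vehicle and 16.5% ± 0.666 with blebbistatin (SD, n = 3), and the common isoform stayed the larger one in each library.

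The rise of Cox6b2 held in direction in each of 18 alternative analyses, with a log2 change between 0.70 and 0.83, and it passed in 14 of them, with adjusted p between 0.00824 and 0.089 (limma, Benjamini-Hochberg). By the same limma test it did not pass without vehicle 2 (adjusted p = 0.060), without vehicle 3 (adjusted p = 0.068), without blebbistatin 3 (adjusted p = 0.089) or with a block on replicate number (adjusted p = 0.078). Markers of other blood cells also differed between the groups. The 9 platelet markers summed to between 62.7 and 71.1 TPM with vehicle and between 141 and 159 TPM with blebbistatin, with 6 called higher. The 8 B cell markers summed to between 52.2 and 60.0 TPM and between 79.4 and 95.0 TPM, with H2-Eb1 and Igkc called higher. The 6 myeloid markers summed to between 90.1 and 91.3 TPM and between 70.2 and 98.6 TPM. Of these, 2 reached the minimum level for a test, and 0 were called. Cst3 had a log2 change of -0.24 with overlapping groups. Cd68 had a log2 change of 0.53, with 1.69 TPM between the nearest libraries of its groups. The part of these cells in the Cox6b2 values was not tested.

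Cox6b2 (ENSMUSG00000051811) lies on the minus strand of chromosome 7 at chr7:4751792-4753094 in GRCm38, and its exons overlap those of no other annotated gene. The neighbouring gene Suv420h2, a histone methyltransferase, stood at 40.6, 39.7 and 42.9 TPM with vehicle and at 27.8, 37.7 and 34.7 TPM with blebbistatin. Its log2 change was -0.30 (limma, Benjamini-Hochberg adjusted p = 0.18). Fam71e2, on the other side of Cox6b2, was at 0.0165 TPM in 1 library and at 0 in the others. The coding sequences of Cox6b1 (261 bases) and Cox6b2 (267 bases) were compared for stretches that they share. Of 257 aligned bases, 166 were identical (64.6%), and the longest run of identical bases, over the coding sequences and over all pairs of annotated transcripts, was 14. The coding stretches around that run are shown because they hold the longest shared run, with the shared run in capitals (bases 49 to 98 of Cox6b1 and 55 to 104 of Cox6b2, from the GENCODE transcripts of GRCm38).
Cox6b1: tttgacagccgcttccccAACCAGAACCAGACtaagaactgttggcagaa
Cox6b2: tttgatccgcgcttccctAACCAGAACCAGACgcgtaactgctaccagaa
In the annotated transcripts, no stretch longer than the shared run is identical between the 2 isoforms. How reads were assigned between them was not tested.

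Promoter sequences from RefSeq (GRCm38.p6), from 250 bases before to 50 bases after the start of a gene, were found for 66 of the 84 members. They are shown for Cox6b2, for its common paralog and for Cox6a1, the nuclear complex IV gene with the highest level, as runs that hold no annotated exon. Capitals mark motifs found by exact match on either strand, which were the core of the nuclear respiratory factor 1 site, CGCATGCG, the GC box GGGCGG (read CCGCCC on the other strand) and the CCAAT box (read ATTGG on the other strand). Runs are printed on the strand of the gene, at chr7:4753095-4753225, chr7:30626152-30626364 and chr5:115348982-115349129, all on the minus strand.
Cox6b2: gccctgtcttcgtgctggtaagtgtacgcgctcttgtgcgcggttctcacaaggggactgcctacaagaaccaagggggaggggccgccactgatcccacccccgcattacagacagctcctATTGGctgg
Cox6b1: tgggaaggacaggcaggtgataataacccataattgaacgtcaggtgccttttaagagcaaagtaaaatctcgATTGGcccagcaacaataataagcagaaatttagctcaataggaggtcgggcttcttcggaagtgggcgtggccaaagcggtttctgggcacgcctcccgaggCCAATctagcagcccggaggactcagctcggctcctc
Cox6a1: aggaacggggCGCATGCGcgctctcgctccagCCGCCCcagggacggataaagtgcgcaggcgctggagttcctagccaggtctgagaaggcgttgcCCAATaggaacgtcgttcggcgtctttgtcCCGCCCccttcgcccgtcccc
The Cox6b2 run holds 1 CCAAT box and the Cox6b1 run holds 2, while the Cox6a1 run holds 1 nuclear respiratory factor 1 core, 2 GC boxes and 1 CCAAT box. The full 300-base windows hold further matches that are not within the printed runs. These are a GC box for Cox6b2 and the ETS family motif CCGGAAG for Cox6b1 and Cox6a1. A match is a description of letters and not of binding.

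Across the 66 members, the nuclear respiratory factor 1 core was in 9 promoters (13.6%, against 2.07% of the 27025 genes with a promoter of that length). Its holders were Atp5g2, Atp5j, Atp5k, Atp5l, Cox6a1, Ndufa8, Ndufa11, Uqcr11 and Uqcrc1. The ETS motif CCGGAAG, a form bound by GABPA, was in 16 (24.2%, against 9.93%), among them Cox6b1, Cox8a, Ndufb7, Sdhb, Sdhd and Uqcrh. The YY1 motif AAGATGGC was in 9 (13.6%, against 3.19%), among them Ndufa3, Ndufs4 and Ndufs7. The GC box was in 26 (39.4%, against 38.2%) and the CCAAT box in 29 (43.9%, against 41.1%), so these common motifs were about as frequent as in all genes. All 5 motifs were searched on both strands, and none of them is contained in another.

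**Figure D1:**
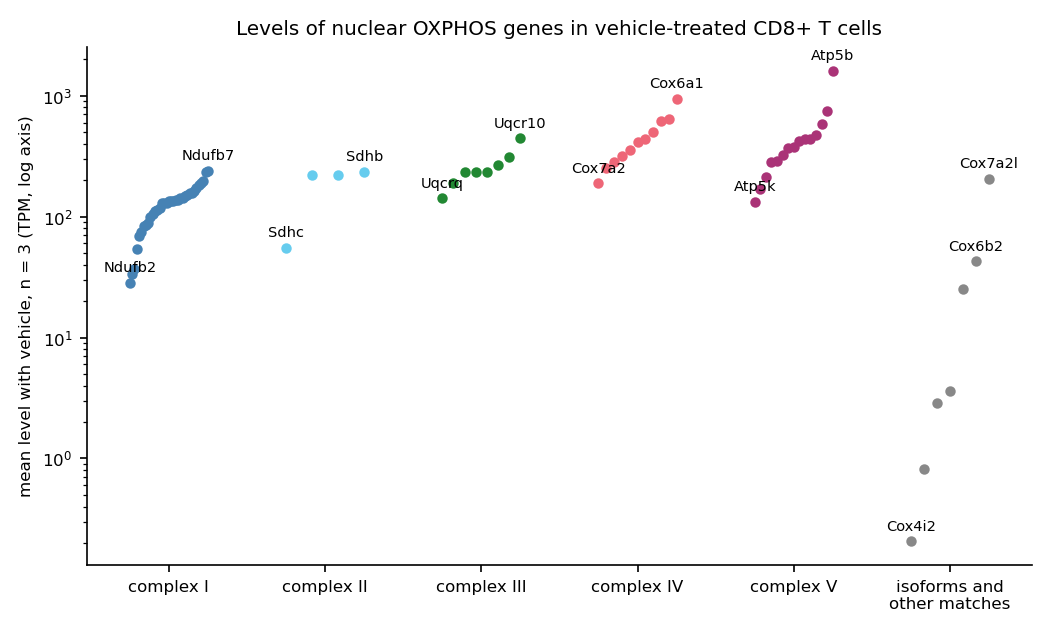
Mean level of each nuclear OXPHOS gene in the 3 vehicle libraries (TPM, log axis), 1 point per gene in order of level within each complex. Common subunits lie between 28.4 and 1615 TPM, and isoforms known from restricted tissues lie at 42.9 TPM (Cox6b2) or at 2.88 TPM and below.

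In vehicle libraries the common subunits summed to 19065 ± 244 TPM (SD, n = 3), or 1.91% of all TPM. Complex V had the largest sum, 6876 ± 110 TPM, followed by complex IV with 4958 ± 56.6, complex I with 4438 ± 71.1, complex III with 2057 ± 10.1 and complex II with 736 ± 8.48 TPM. The order of sums differs from that of single genes, since complex I divides its sum over 35 genes with a median of 134 TPM, and complex IV over 11 genes with a median of 418 TPM. The median of complex V was 373 TPM, that of complex III 234 TPM and that of complex II 222 TPM. Within a complex, levels spanned from 3.14-fold (complex III) to 12.2-fold (complex V). The subunit with the highest level was Atp5b, the catalytic beta subunit of the ATP synthase, at 1615 ± 16.5 TPM. Atp5a1, the alpha subunit that shares the catalytic head with it, stood at 747 ± 8.95 TPM, although the head holds alpha and beta in equal number. At the low end were Ndufb2, an accessory subunit of complex I, at 28.4 ± 6.73 TPM, and Ndufc1, at 33.4 ± 2.31 TPM.

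**Figure D2:**
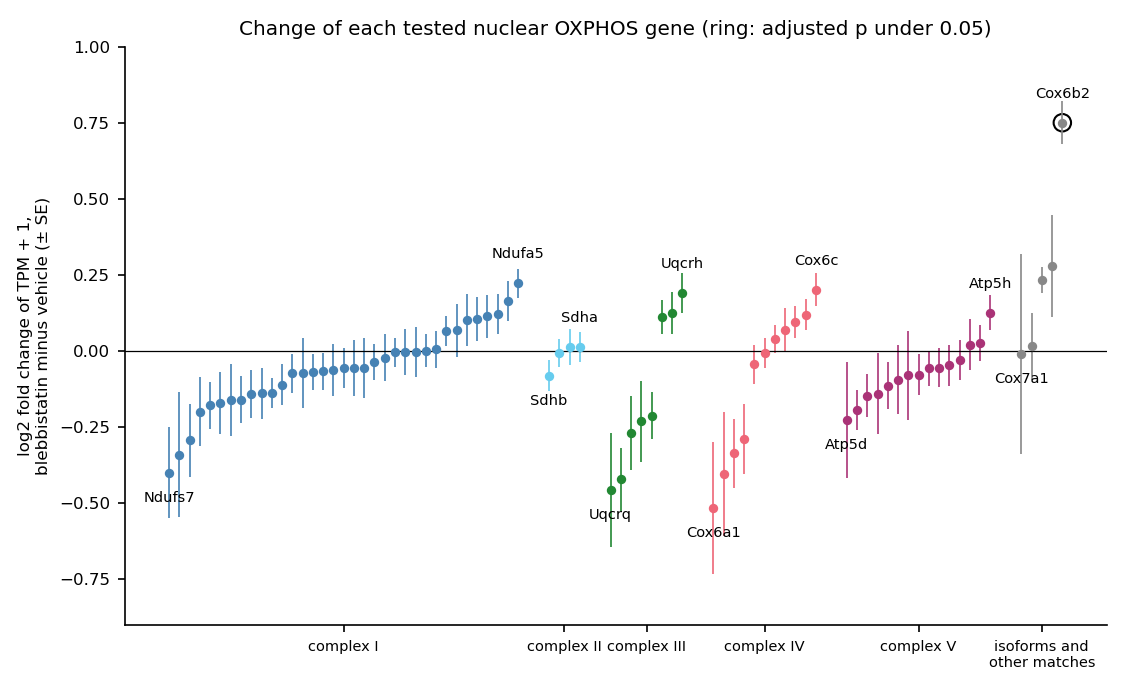
log2 fold change of TPM + 1 (blebbistatin minus vehicle) with its standard error from limma for each of the 78 tested members, in order within each complex. Cox6b2, ringed, is the one that passed at an adjusted p under 0.05, at 0.75, and the common subunits lie between -0.52 and 0.20 except Ndufa5 at 0.22.

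None of the 73 common subunits passed. Their median log2 change was -0.06, where that of all tested genes was 0.03, with 23 above 0 and 50 below. The spread of changes over the 73 genes was 0.16 (SD), against 0.28 over all tested genes. Vehicle and blebbistatin libraries did not overlap in 21 of the 73, 8 of them higher and 13 lower, which is 28.8%, where the groups did not overlap in 31% of all tested genes (18% higher and 13% lower). The median stayed below 0 under each scaling, at -0.10 with median-ratio scaling, -0.03 with quantile scaling and -0.04 after a loess correction of each library for transcript GC content and length. Without blebbistatin 1 it was -0.0079, with 35 subunits above 0 and 38 below.

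**Figure D3:**
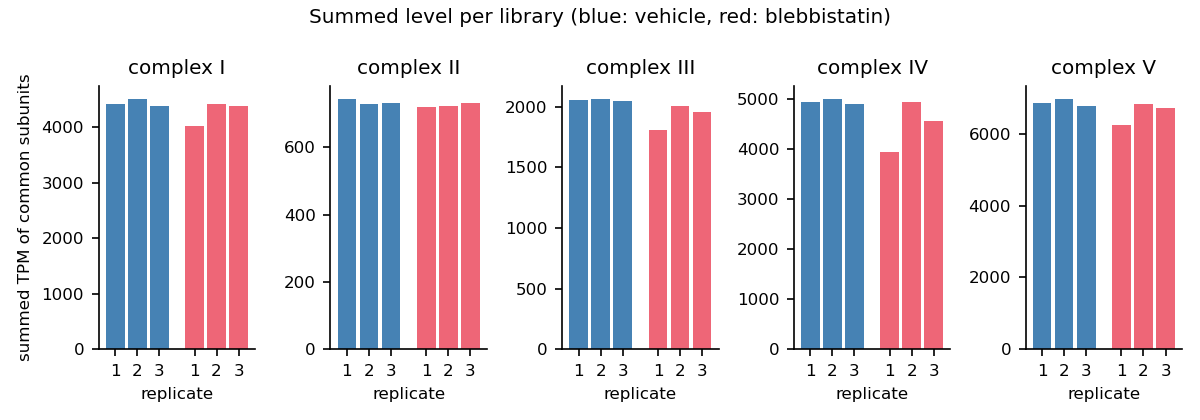
Summed TPM of the common subunits of each complex in each library, with bars from 0 (blue, vehicle; red, blebbistatin). The bar of blebbistatin 1 is the lowest in each complex, and in complex IV it stands at 3948 TPM where the vehicle bars stand between 4906 and 5018 TPM.

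The summed level of the 73 subunits was 19023, 19327 and 18844 TPM with vehicle and 16751, 18970 and 18364 TPM with blebbistatin. Blebbistatin 2 lay within the range of the vehicle libraries, and blebbistatin 1 was the lowest. The mean with blebbistatin was 94.6% of that with vehicle. By complex it was 96.5% for complex I, 98.5% for complex II, 93.5% for complex III, 90.6% for complex IV and 96.0% for complex V. In blebbistatin 1 the log2 ratios to the vehicle mean spread over genes by 0.46 in complex III and 0.44 in complex IV (SD), against 0.25 in complex I, 0.07 in complex II and 0.22 in complex V.

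Complex I takes electrons from NADH. The name rule gave it 7 catalytic core subunits, which carry the flavin and the iron-sulfur clusters, and 28 accessory subunits. Ndufab1, also a subunit of complex I, falls outside the rule and is described below. None of the 35 passed. The median log2 change was -0.06, with 10 genes above 0 and 25 below, and groups did not overlap in 4 higher and 4 lower genes (22.9%, below the 31% of all tested genes, 18% higher and 13% lower). The core subunits ranged from -0.40 to 0.10, with 2 above 0 and 5 below.

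Among the core subunits, Ndufs7, which holds the last iron-sulfur cluster before coenzyme Q, stood at 101, 107 and 106 TPM with vehicle and at 61.6, 96.1 and 84.4 TPM with blebbistatin. The groups did not overlap, and blebbistatin 1 was the lowest, for a log2 change of -0.40 (limma, Benjamini-Hochberg adjusted p = 0.18), which was -0.15 after the correction and -0.22 without blebbistatin 1. Ndufs1, the largest core subunit, and Ndufv2 had log2 changes of 0.10 and 0.07 with overlapping groups.

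Among the accessory subunits, Ndufa5 stood at 85.2, 83.4 and 84.2 TPM with vehicle and at 97.5, 98.5 and 99.5 TPM with blebbistatin. The libraries of each group lay within 2.00 TPM of each other, and the groups were 12.3 TPM apart at their nearest. The mean went from 84.3 ± 0.902 to 98.5 ± 1.00 TPM, a log2 change of 0.22 that did not pass (limma, Benjamini-Hochberg adjusted p = 0.068). It did pass after the correction for length and GC content (adjusted p = 0.036) and without blebbistatin 2 (adjusted p = 0.048), over a range of 0.036 to 0.23 in 18 alternatives (limma, Benjamini-Hochberg). Ndufa3 had the next highest change, from 88.3 ± 3.74 to 99.2 ± 6.52 TPM (log2 change 0.17).

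Ndufv3, which sits beside the NADH-binding subunits, had one of the highest levels in complex I, with 233 ± 9.60 TPM in the vehicle and 244 ± 2.64 TPM in the blebbistatin libraries. Ndufb7, an accessory subunit of the membrane arm with a like level, stood at 239, 232 and 246 TPM and at 161, 230.0 and 200 TPM. Its groups were apart by 1.67 TPM, with blebbistatin 2 next to the vehicle libraries, for a log2 change of -0.29 (limma, Benjamini-Hochberg adjusted p = 0.21). This change was -0.06 after the correction for length and GC content and -0.16 without blebbistatin 1. Ndufa7 stood at 190 ± 2.11 and 191 ± 21.1 TPM. Reads of Ndufb6 and Ndufa13 are uncertain, since 39.0% and 30.0% of their exon length is shared with Smim27 and Tssk6 and the library kit does not mark the strand.

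Complex II, succinate dehydrogenase, is also an enzyme of the citric acid cycle and is the one complex encoded in the nucleus alone. Its 4 genes had log2 changes between -0.08 and 0.01 with a median of 0.00, and groups overlapped in each. Sdha, the flavoprotein that oxidises succinate, stood at 221, 224 and 224 TPM with vehicle and at 231, 215 and 229 TPM with blebbistatin. Sdhb, the iron-sulfur subunit, stood at 241, 227 and 239 TPM and at 217, 231 and 220 TPM. The membrane anchors differed in level from each other, with Sdhc at 55.2 ± 2.35 and 55.7 ± 1.88 TPM and Sdhd at 222 ± 4.87 and 221 ± 3.84 TPM. Sdha, Sdhb and Sdhd therefore lay at like levels with vehicle, between 222 and 236 TPM, and Sdhc well below them.

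Complex III, the cytochrome bc1 complex, had the lowest median, -0.22, and none of its 8 genes passed. Groups did not overlap in 7 of the 8 (87.5%), 2 higher and 5 lower, where they did not overlap in 31% of all tested genes (18% higher and 13% lower). The median was -0.26 with median-ratio scaling, -0.17 with quantile scaling, -0.29 without blebbistatin 2, -0.09 without blebbistatin 1 and -0.08 after the correction for length and GC content.

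Uqcrfs1, the Rieske iron-sulfur protein that passes electrons on to cytochrome c1, stood at 188, 190.1 and 195 TPM with vehicle and at 128, 169 and 134 TPM with blebbistatin. Each blebbistatin library lay below each vehicle library, for a log2 change of -0.42 (limma, Benjamini-Hochberg adjusted p = 0.092). This change was -0.44 after the correction and -0.34 without blebbistatin 1. Without blebbistatin 2 it passed (limma, Benjamini-Hochberg adjusted p = 0.012, over a range of 0.012 to 0.25 in 18 alternatives). Uqcrq, a small subunit bound to cytochrome b, stood at 145, 147 and 133 TPM and at 75.2, 133 and 109 TPM. Blebbistatin 1 was at 53.1% of the vehicle mean and blebbistatin 2 was 0.171 TPM below the lowest vehicle library. The log2 change was -0.46 (limma, Benjamini-Hochberg adjusted p = 0.21), or -0.44 after the correction and -0.23 without blebbistatin 1.

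Uqcrc1 and Uqcrc2 encode the pair of core proteins, which are related to the mitochondrial processing peptidase. Uqcrc1 stood at 269, 263 and 270 TPM with vehicle and at 181, 259 and 232 TPM with blebbistatin. Uqcrc2 stood at 232, 230 and 234 TPM and at 263, 235 and 256 TPM. The partners thus lay on opposite sides of vehicle, and the ratio of Uqcrc1 to Uqcrc2 was 1.16, 1.14 and 1.15 with vehicle and 0.689, 1.10 and 0.907 with blebbistatin. Neither change passed (log2 changes of -0.27 and 0.11, limma, Benjamini-Hochberg adjusted p = 0.24 and 0.27). They were -0.12 and 0.03 after the correction and -0.12 and 0.08 without blebbistatin 1, and 19.7% of the exon length of Uqcrc2 is shared with Pdzd9. Uqcrh, the hinge protein that links cytochrome c1 with cytochrome c, went from 312 ± 11.5 to 357 ± 26.9 TPM. Its log2 change was 0.19, or 0.13 after the correction and 0.14 without blebbistatin 1. Uqcr10, the nuclear gene of complex III with the highest level, went from 445 ± 5.47 to 385 ± 39.4 TPM (log2 change -0.21, or -0.14 after the correction and -0.13 without blebbistatin 1).

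Complex IV, cytochrome c oxidase, reduces oxygen on subunits encoded in mitochondrial DNA, which the nuclear subunits surround. Its 11 common nuclear subunits had a median log2 change of -0.01, which turned to 0.02 with quantile scaling, and none passed. Some differed widely between blebbistatin libraries and others little. Groups did not overlap in 2 higher and 3 lower genes (45.5%, against 31% of all tested genes, 18% higher and 13% lower).

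Cox6a1, a regulatory subunit, stood at 922, 976 and 938 TPM with vehicle and at 457, 903 and 698 TPM with blebbistatin. Blebbistatin 1 was at 48.4% of the vehicle mean, blebbistatin 3 at 73.9% and blebbistatin 2 at 95.5%, for a log2 change of -0.52 (limma, Benjamini-Hochberg adjusted p = 0.22), which was -0.32 after the correction and -0.25 without blebbistatin 1. Cox8a, a small membrane subunit, had the same order of libraries, at 655, 638 and 640.2 TPM and at 345, 656 and 510.1 TPM, and its groups overlapped. Cox5a, a subunit on the matrix face, stood at 445, 441 and 418 TPM and at 301, 414 and 327 TPM. Its groups did not overlap, with a log2 change of -0.34 (limma, Benjamini-Hochberg adjusted p = 0.15). This change was -0.38 after the correction and -0.24 without blebbistatin 1, and 12.8% of the exon length of Cox5a is shared with Gm26631.

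Cox6c, another small membrane subunit, stood at 327, 317 and 312 TPM with vehicle and at 345, 375 and 380.5 TPM with blebbistatin. Here blebbistatin 1 was the lowest of its group and still above all vehicle libraries, for a log2 change of 0.20 (limma, Benjamini-Hochberg adjusted p = 0.11). Ndufa4 went from 286 ± 10.4 to 310.5 ± 11.1 TPM, with 0.038 TPM between the nearest libraries of the groups. Its log2 change was 0.12, or 0.03 after the correction and 0.11 without blebbistatin 1. Cox4i1, the common isoform of the subunit through which ATP inhibits the enzyme, went from 618 ± 12.9 to 601 ± 46.7 TPM. Cox7a2 and Cox7b went from 190 ± 3.55 to 195 ± 4.39 TPM and from 252 ± 4.90 to 270 ± 13.1 TPM with overlapping groups.

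**Figure D4:**
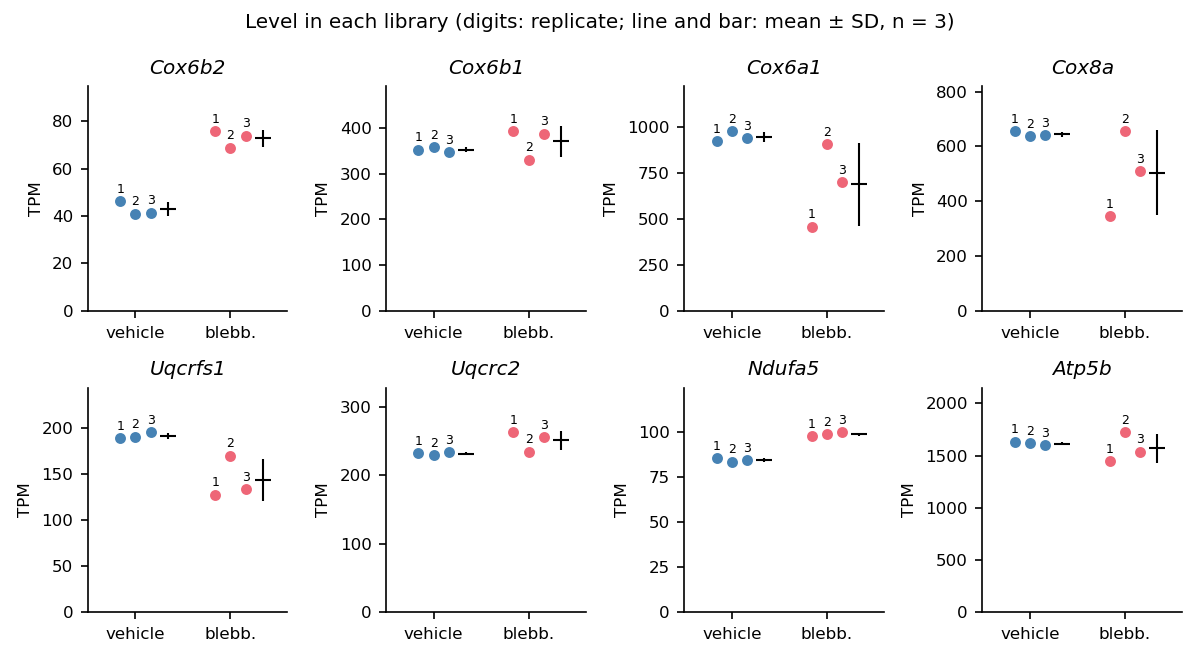
TPM in each library for 8 members, with the replicate number beside each point and the mean ± SD (n = 3) to the right of each group (axes from 0). Cox6b2 and Ndufa5 lie tightly around separate means, while in Cox6a1 and Cox8a the blebbistatin libraries spread from 457 to 903 TPM and from 345 to 656 TPM.

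Complex V, the ATP synthase, had a median log2 change of -0.08, with 3 genes above 0 and 12 below, and none of its 15 genes passed. Groups did not overlap in 1 gene, a lower one (6.67%, against 31% of all tested genes and 13% lower). Atp5b stood at 1632, 1615 and 1599 TPM with vehicle and at 1446, 1721 and 1537 TPM with blebbistatin, so that the vehicle libraries lay inside the range of the blebbistatin libraries. Atp5a1 went from 747 ± 8.95 to 721 ± 57.0 TPM. The 5 genes of the catalytic head and central stalk had log2 changes between -0.23 and -0.03, and the 4 of the peripheral stalk, which holds the head still, between -0.14 and 0.13. The lowest of these, of Atp5d, the delta subunit of the central stalk, was 0.04 after the correction and 0.02 without blebbistatin 1. Reads of Atp5o, a gene of the peripheral stalk, are uncertain, since 47.9% of its exon length is shared with other annotated genes. Among these is another entry under the symbol Atp5o.

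Subunit c, which forms the rotating ring of the membrane part, is encoded by Atp5g1, Atp5g2 and Atp5g3, whose mature proteins are identical. Their summed level was 1230, 1227 and 1234 TPM with vehicle and 1020, 1162 and 1182 TPM with blebbistatin. Atp5g3 held 47.5% ± 1.37 of it with vehicle and 45.7% ± 0.243 with blebbistatin (SD, n = 3), Atp5g2 held 38.6% ± 1.51 and 40.2% ± 0.211, and Atp5g1 held 13.8% ± 0.690 and 14.1% ± 0.181. The order of the 3 genes was thus the same in both groups. Atp5g3 was the gene whose groups did not overlap, at 566, 597 and 591 TPM and at 466, 534 and 537 TPM. Its log2 change was -0.19 (limma, Benjamini-Hochberg adjusted p = 0.16), or -0.21 after the correction and -0.13 without blebbistatin 1.

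Of the isoforms known from restricted tissues, Cox6b2 was the one with a mean above 5 TPM. Cox7a1, the heart and muscle isoform of subunit 7A, stood at 1.58, 3.98 and 3.07 TPM with vehicle and at 3.65, 1.42 and 3.57 TPM with blebbistatin, on 6 to 16 implied fragments per library, and made up 1.49% ± 0.626 and 1.45% ± 0.624 of Cox7a1 plus Cox7a2. Cox6a2, the heart and muscle isoform of subunit 6A, had a mean of 0.814 ± 0.158 TPM with vehicle and 0.152 ± 0.150 TPM with blebbistatin on at most 6 implied fragments per library, below the minimum for a test. Cox4i2, known from lung, was at or under 0.508 TPM in each library. Cox7b2, Cox8b, Cox8c and Ndufa4l2 were listed at 0 in each library, while their common paralogs Cox7b, Cox8a and Ndufa4 stood between 252 and 645 TPM with vehicle.

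Cox7a2l, which helps to join complexes III and IV into supercomplexes, stood at 209, 207 and 202 TPM with vehicle and at 242, 241 and 244 TPM with blebbistatin. The groups were 31.5 TPM apart at their nearest, and the mean went from 206 ± 3.77 to 242 ± 1.70 TPM, a log2 change of 0.23 just outside the threshold (limma, Benjamini-Hochberg adjusted p = 0.051). It passed in 6 of 18 alternatives, with adjusted p between 0.014 and 0.19 (limma, Benjamini-Hochberg). Atp5s, a factor that couples the ATP synthase, went from 3.65 ± 0.636 to 4.67 ± 1.03 TPM, and Atp5sl, an assembly factor of complex I, from 25.4 ± 1.27 to 25.8 ± 3.75 TPM.

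The blebbistatin libraries differed from each other in how far the subunits lay from vehicle. The median log2 ratio of the 73 subunits to the vehicle mean was -0.13 in blebbistatin 1, -0.02 in blebbistatin 2 and 0.00 in blebbistatin 3, and the spread over genes was 0.30, 0.09 and 0.18 (SD). In blebbistatin 1, 14 subunits were more than 25% below the vehicle mean, against 0 in blebbistatin 2 and 3 in blebbistatin 3. Of the 50 subunits with a log2 change below 0, 42 were lowest in blebbistatin 1. Without blebbistatin 2, Cox5a, Cox5b, Cox6a1, Ndufb7 and Uqcrfs1 were lower (5 members) and Cox6b2, Cox7a2l and Ndufa5 higher (3 members), where 4.44% and 3.71% of all tested genes were called. Without blebbistatin 1, Cox6b2 was called higher and 0 members lower, where 0.666% and 0.232% of all tested genes were called.

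**Figure D5:**
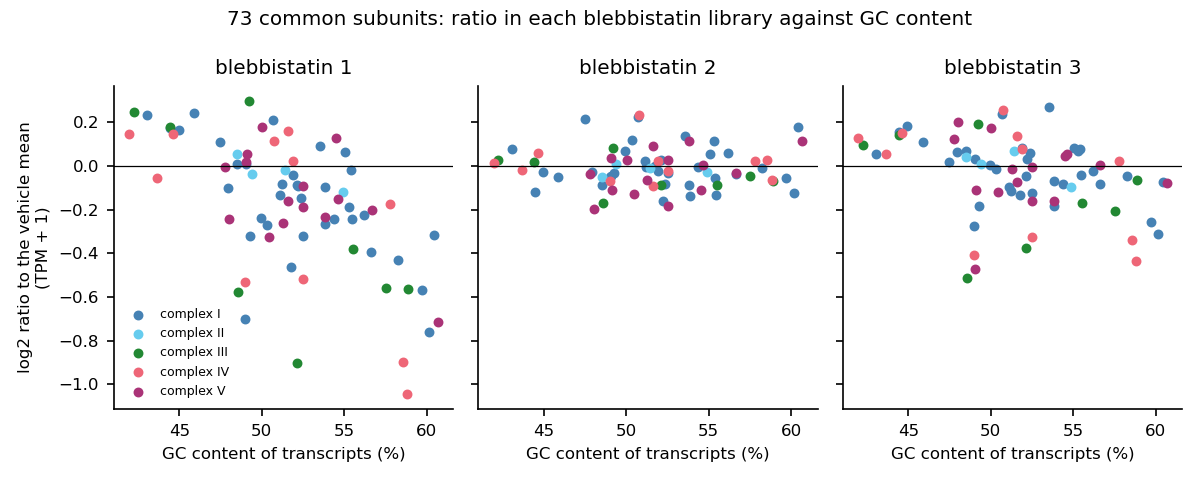
log2 ratio of TPM + 1 to the vehicle mean against the GC content of a gene's transcripts (%), for the 73 common subunits in each blebbistatin library, coloured by complex. Points slope down with GC content in blebbistatin 1 (r = -0.61) and less so in blebbistatin 3 (r = -0.36), and are level in blebbistatin 2 (r = -0.01).

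Log2 ratios of the subunits sloped with the GC content of their transcripts, with Pearson correlations across the 73 genes of -0.61 in blebbistatin 1, -0.01 in blebbistatin 2 and -0.36 in blebbistatin 3. Across 13317 tested genes these correlations were -0.52, -0.05 and -0.28. They are descriptions across genes that share a library. The 10 subunits of lowest GC content, 42.0% to 47.5%, had a median log2 change of 0.11, with 9 above 0, and included Cox7b, Uqcrb, Ndufs4, Uqcrc2 and Ndufa4. The 10 of highest GC content, 57.5% to 60.7%, had a median of -0.25, with 10 below 0, and included Uqcrc1, Cox8a, Cox6a1, Ndufb7 and Ndufs7. Uqcrc1 stood at 57.5% GC, among the 10 highest, and Uqcrc2 at 44.4% GC, among the 10 lowest. The correction subtracts a fit on GC content and length from each library, so it takes out such a slope by design. After it the correlation of the log2 change with GC content across the 73 genes was 0.05 in place of -0.51. Medians of the log2 change were then -0.04 for complex I, -0.01 for complex II, -0.08 for complex III, -0.02 for complex IV and -0.04 for complex V. What sets the slope was not tested. After the correction Cox6b2 (55.4% GC) had a log2 change of 0.83, and Cox6b2, Cox7a2l, Ndufa5 and Ndufa13 were higher (4 members), where 2.82% of tested genes were called higher. Of these, Ndufa13 changed sign, from -0.07 to 0.18.

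Other genes of the pathway were read from the same fit. The 13 subunits encoded in mitochondrial DNA were all above 0, with a median log2 change of 0.20, and none passed in the reported fit. Of the 13, 3 were called higher without blebbistatin 2, where 3.71% of all tested genes were. With quantile scaling 11 of them were above 0, and after the correction 9 were, with a median of 0.05. One of the 13, mt-Atp6, varied within both groups, from 642 to 4376 TPM with vehicle and from 696 to 5967 TPM with blebbistatin, and it overlaps mt-Atp8 on the same strand. Their summed level was between 58256 and 61789 TPM with vehicle and between 65143 and 82673 TPM with blebbistatin, where the sum of the 73 nuclear subunits lay between 18844 and 19327 and between 16751 and 18970 TPM. The mitochondrially encoded gene with the highest level, mt-Co1, the catalytic subunit of complex IV, stood at 16022, 16080 and 15862 TPM and at 22489, 18166 and 19612 TPM. Each blebbistatin library lay above each vehicle library, by a log2 change of 0.32 in the mean (limma, Benjamini-Hochberg adjusted p = 0.091). This change was 0.00 with quantile scaling, where mt-Co1 keeps the highest rank in each library, 0.18 after the correction for length and GC content and 0.39 without blebbistatin 2, with adjusted p of 0.019 in the former and 0.025 in the latter and a range of 0.019 to 1 over 18 alternatives (limma, Benjamini-Hochberg).

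Of 6 core genes whose names fall outside the rule, none passed in the reported fit. Among them 2 were called lower without blebbistatin 2, where 4.44% of all tested genes were. Ndufab1, the acyl carrier protein that is also a subunit of complex I, stood at 141, 142 and 142 TPM with vehicle and at 68.2, 95.5 and 99.9 TPM with blebbistatin. Its vehicle values were within 0.882 TPM of each other, and all blebbistatin libraries lay at least 41.1 TPM below them, for a log2 change of -0.70 that did not pass (limma, Benjamini-Hochberg adjusted p = 0.056). It passed without blebbistatin 1 (adjusted p = 0.021), without blebbistatin 2 (adjusted p = 0.037) and among protein-coding genes alone (adjusted p = 0.045), over a range of 0.021 to 0.18 in 18 alternatives (limma, Benjamini-Hochberg). The log2 change of Ndufab1 was -0.78 after the correction and -0.53 without blebbistatin 1. Its transcripts have a GC content of 45.3%, in the range of the 10 subunits of lowest GC content. Cyc1, cytochrome c1 of complex III, went from 235 ± 2.62 to 202 ± 25.7 TPM (log2 change -0.22, or -0.12 after the correction and -0.13 without blebbistatin 1). Usmg5, a small ATP synthase subunit and the highest of the 6, went from 322 ± 7.43 to 362 ± 31.4 TPM. Its log2 change was 0.17, or 0.08 after the correction and 0.10 without blebbistatin 1.

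None of the 46 assembly factors passed in the reported fit, nor did any of the 13 coenzyme Q synthesis genes. Without blebbistatin 2, factors of complex I (2 genes) and complex IV (3 genes) and 1 coenzyme Q gene were called lower, where 4.44% of all tested genes were. After the correction 1 coenzyme Q gene was called higher, where 2.82% of tested genes were. Assembly factors of complex IV had 6 genes above 0 and 13 below, with a median of -0.09, and those of complex I had 6 above and 8 below, with a median of -0.02. Medians were 0.08 for the 4 factors of complex II, 0.08 for the 6 of complex III, 0.04 for the 3 of complex V and -0.09 for coenzyme Q synthesis. Cox17, the copper chaperone of complex IV and the assembly factor with the highest level, stood at 274, 235 and 313 TPM with vehicle and at 162, 219 and 188 TPM with blebbistatin (log2 change -0.53; limma, Benjamini-Hochberg adjusted p = 0.099). The groups did not overlap, with 16.4 TPM between the nearest libraries. The change of Cox17 was -0.58 after the correction and -0.42 without blebbistatin 1. It passed in 1 of 18 alternatives, with adjusted p between 0.037 and 0.25 (limma, Benjamini-Hochberg). The highest of the other lists were Ndufaf2 (48.9 and 49.0 TPM), Sdhaf2 (33.1 and 36.0 TPM), Uqcc2 (84.5 and 78.0 TPM), Atpaf2 (62.1 and 56.8 TPM) and Coq2 (57.8 and 59.1 TPM), as means with vehicle and with blebbistatin.

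Of the 13 regulators of mitochondrial genes, 12 were tested and none passed in the reported fit, with a median log2 change of -0.05. Among them 1 was called lower without blebbistatin 2, where 4.44% of all tested genes were. Yy1, the regulator with the highest level, went from 94.0 ± 1.35 to 91.1 ± 3.48 TPM with overlapping groups. Nrf1 and Gabpa, whose proteins bind the core and the ETS motif searched above, went from 42.7 ± 6.90 to 39.6 ± 1.00 TPM and from 44.5 ± 1.51 to 45.8 ± 2.13 TPM with overlapping groups. Ppargc1a, a coactivator that drives mitochondrial genes in muscle and brown fat, was listed at 0 in each library.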

How the data were processed

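RNA sequencing of 6 samples, 3 per group as the titles label them, was used as deposited gene tables. Libraries were made from TRIzol-extracted RNA with TruSeq kit v2, which does not mark strand, per the labels' protocols. HISAT2 2.1.0, StringTie 1.3.4, DESeq2 1.22.2 and mm10 are named with no role or order, per the submitters' processing notes. The layout is that of a StringTie gene abundance table, per the file headers, and annotation and filters used upstream were not given in the sources used here. The deposited TPM values sum to 1000000 in each library. In each library, dividing the deposited FPKM by TPM gives a constant. Coverage, as deposited, is a gene's unscaled average depth, and its ratio to FPKM (5.54 to 5.98) gave the implied fragments, with 300 aligned bases taken as 1 fragment. Genes at several places (12 to 14 per library) came as merged rows, and their TPM was used as deposited.

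Genes whose mean reached 1 TPM were fitted on log2(TPM + 1) with limma 3.58.1 in R 4.3.3 (empirical Bayes with a trend), and p-values were adjusted over all 13372 genes by Benjamini-Hochberg at 0.05. Fold changes on this scale understate changes of low genes, and an exact permutation test of 3 against 3 libraries cannot go below 0.1. The fit was tested on simulated data first. The loess correction used a span of 0.3 on log2 length and GC content of GENCODE M21 transcripts (98.9% of gene identifiers matched, and all 84 members). Coordinates and exon overlap came from that annotation. Sequences came from RefSeq promoters and GENCODE transcripts. Tables and plots used Python 3.11.15, pandas 2.3.3 and matplotlib 3.10.9.

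The members and lists were chosen with earlier results of these data known. Members were named where they passed, where they were among the 3 highest in a complex, or where they had the 2 largest rises or falls among members with a mean of at least 5 TPM whose groups did not overlap. Isoforms with their common paralogs, subunit c genes, complex II and the highest gene of each other list were named too. Ndufb2, Ndufc1, Ndufs1, Ndufv2, Ndufs4, Ndufb6, Ndufa13, Atp5d, Atp5o, Cox5b, Uqcrb, Ndufab1, Cyc1, mt-Atp6, Nrf1, Gabpa, Suv420h2, Fam71e2 and marker genes were named after their values were seen. Replicate numbers are shared between groups, and the reported fit, as designed, had no block. Deviations of same-numbered libraries had correlations of 0.011, -0.037 and -0.034, which cannot tell whether they shared a source. A few items are not reported here.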

Additional observations from a re-analysis of the deposited data

How the results depend on the processing

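Counts of genes called (limma, Benjamini-Hochberg) were 244 in the reported fit, 49 with no minimum level, 160 with no trend and 553 after the loess correction. Over the fits without 1 library they were 3 to 1090 (leaving out vehicle 1, 2 or 3 gave 13, 11 or 7, and leaving out blebbistatin 1, 2 or 3 gave 120, 1090 or 3). Members called higher were 1 in the reported fit and 2 with a minimum of 5 TPM, quantile scaling, the robust option or protein-coding genes alone (Cox6b2 and Cox7a2l). Under those settings, in that order, 172 of 10142, 137 of 13372, 188 of 13372 and 237 of 10944 tested genes were called higher. After the correction 4 members were called higher, where 2.82% of tested genes were. Without 1 library 0 to 3 members were called higher, where 3 to 496 of 13372 genes were. Members called lower were 0 in the reported fit and 0 to 5 without 1 library. In those fits without 1 library, 0 to 594 of 13372 genes were called lower. With a replicate block limma called 0 genes and 0 members higher, with 2628 genes at an unadjusted p under 0.05. By deviation from the group mean, 0 of 6 libraries correlated best with their own number. All these correlations lay between -0.037 and 0.059, so they cannot tell whether same-numbered libraries shared a source. The median of complex II was -0.039 with median-ratio scaling.

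Among the genes that the naming rule gives, those that turned sign had log2 changes between -0.12 and 0.10 in the reported fit and passed under no setting. Genes named beyond the rule could turn sign too, and of these Ndufa13 passed as higher after the loess correction (0.18). Among the 13 mitochondrially encoded subunits, 4 were below 0 after the loess correction. With median-ratio scaling the log2 changes were -0.028 for Sdha, -0.0027 for Cox7a2, -0.029 for Sdhc, -0.025 for Atp5sl and -0.0062 for Coq2. With quantile scaling they were 0.037 for Ndufa7, 0.024 for Sdhd, 0.012 for Atp5b and 0.0035 for Ndufaf2. After the loess correction they were 0.075 for Ndufa7, 0.0051 for Sdhb, -0.026 for Sdha, 0.13 for Cox4i1, 0.051 for Cox7a1, -0.021 for Cox7b, 0.046 for Atp5g2 and 0.0043 for Uqcc2. Over the fits without 1 library, Ndufa7 ranged from -0.060 to 0.091, Sdha from -0.0052 to 0.047, Sdhd from -0.022 to 0.0096, Cox4i1 from -0.076 to 0.023 and Atp5b from -0.12 to 0.010. Atp5a1 ranged from -0.096 to 0.012, Cox7a1 from -0.28 to 0.30, Sdhc from -0.021 to 0.038, Atp5sl from -0.084 to 0.12, Coq2 from -0.038 to 0.11 and Ndufaf2 from -0.13 to 0.076. The cause was not tested. Low genes such as Cox7a1 rest on few fragments, which limits what can be detected at this depth.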
